A study of Homo sapiens with 70 samples.

Results

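The comparison described here is between sgNS cells given DOX (3 libraries) and sgNS cells given DMSO (3 libraries) at day 5, which make up 6 of the 70 libraries of the series. The members were chosen by their titles alone, as the libraries of the control guide sgNS at that time. All libraries came from MIA PaCa-2, a human pancreatic ductal adenocarcinoma line, in a Sotorasib-resistant form. The cells carried a dCas9-KRAB repressor whose expression is induced by DOX (doxycycline), so the DMSO libraries are the uninduced state of the same guide line. The series also holds 2 guides to the ZBTB11 gene, sgZBTB11 #1 and sgZBTB11 #2, each with DOX or DMSO, and times of 5 hr, 1, 3 and 5 days. At day 5 sgZBTB11 #1 had 3 DOX and 2 DMSO libraries and sgZBTB11 #2 had 3 of each. A dCas9-KRAB line without a targeting guide still differs from its uninduced state by the drug and by the repressor protein itself, and these cannot be told apart here because no cells without the repressor were analysed. Whether replicate libraries stem from independent cultures is not in the labels, and p-values here cover no more than library-to-library spread, possibly technical.

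Doxycycline belongs to the tetracyclines, antibiotics that bind the bacterial ribosome and that also slow translation on the mitochondrial ribosome. Ribosomal protein mRNAs are among the most abundant of a dividing cell, and their output is adjusted together with growth. Immediate early genes are a group of transcription factors and signalling regulators that are switched on within minutes by growth factor, stress or serum signals, in large part through the RAS and MAP kinase pathway.

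Total counts of the 6 libraries ran between 12747347 and 20627642. DMSO replicate 2 stood apart in its content of ribosomal RNA genes, which took 1.08% of its summed TPM (transcript abundance corrected for length), against 0.114% to 0.164% in the other 5. Without that library 2733 genes passed the threshold, against 2915 with it, and the ribosomal list still had 79 of 79 members higher. Markers fixed for the cell types fit a keratin-positive line: KRT8, KRT18 and KRT19 had medians of 796, 1434 and 93.4 CPM (read counts scaled to a common library size with TMM factors), but EPCAM and KRT7 did not exceed 0.124 CPM. Of the acinar and islet markers 8 of 10 were at 0 in all 6 libraries, and PTPRC, CD3E and MS4A1 were among the immune markers at 0. The summed level of the 10 fibroblast markers, of which FAP and PDPN were at 0, was 615 to 631 CPM with DOX and 562 to 590 CPM with DMSO, most of it COL1A2. The summed level of the 7 endothelial markers, of which KDR, CLDN5 and EMCN were at 0, was 21.9 to 24.97 CPM with DOX and 29.9 to 32.97 CPM with DMSO, most of it CDH5. The part of these sums in the results was not tested.

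The first question was how much of the transcriptome differed in induced control cells. Of 16809 genes tested with edgeR's quasi-likelihood test, 2915 (17.3%) passed an adjusted p (Benjamini-Hochberg) of 0.05, 1491 higher (8.87%) and 1424 lower (8.47%) with DOX. The 2 groups of libraries did not overlap in CPM for 5158 genes (30.7%). Cytosolic ribosomal protein genes, mRNAs encoded by mitochondrial DNA and nuclear genes of the respiratory chain had more members higher with DOX than all genes did, and for immediate early genes, the RAS pathway and nuclear long noncoding RNAs more members were lower, with the counts given below. On the deposited TPM scale, with limma on log2(TPM + 1), 5016 genes passed, 258 higher and 4758 lower, and the median log2 change of all genes was -0.16. Directions on the TPM scale are given below relative to that median.

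The targeted gene ZBTB11 (chromosome 3, 101648889 to 101677132, GRCh38.p14), a zinc finger transcription factor, checks the labels. In sgNS it had 48.7, 43.9 and 49.8 CPM with DOX, against 53.8, 48 and 56.2 CPM with DMSO. The groups overlapped, and the log2 change was -0.15 (SE 0.05, adjusted p = 0.032). Under the ZBTB11 guides the log2 change was -0.42 for sgZBTB11 #1 and -0.90 for sgZBTB11 #2, so the fall in sgNS was the smallest of the 3. The difference of sgNS from the mean of the ZBTB11 guides was 0.50 (adjusted p = 6.0e-08). The fall in sgNS did not hold without DMSO replicate 1, DMSO replicate 3 or DOX replicate 2 (adjusted p = 0.095, 0.33 and 0.21), and its adjusted p ran from 0.0024 to 0.33 over all alternatives.

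Ribosomal protein genes moved together. All 79 listed genes of the cytosolic ribosome were tested and all 79 passed the threshold with DOX higher, against 8.87% of all genes. Their median log2 change was 0.33, against 0.0008 for all genes tested, and single members lay between 0.09 (RPS2) and 0.74 (RPS27A). For 77 of the 79 the DOX libraries were all above the DMSO libraries, against 30.7% of all genes for either direction. On the TPM scale 54 passed as higher and 3 as lower, against 258 and 4758 of 15286 genes. All 79 lay above the median of all genes there, by a median of 0.29. With a length trend removed from each library, 73 passed as higher and none as lower, against 1433 and 1235 of 15641 genes.

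**Figure D1:**
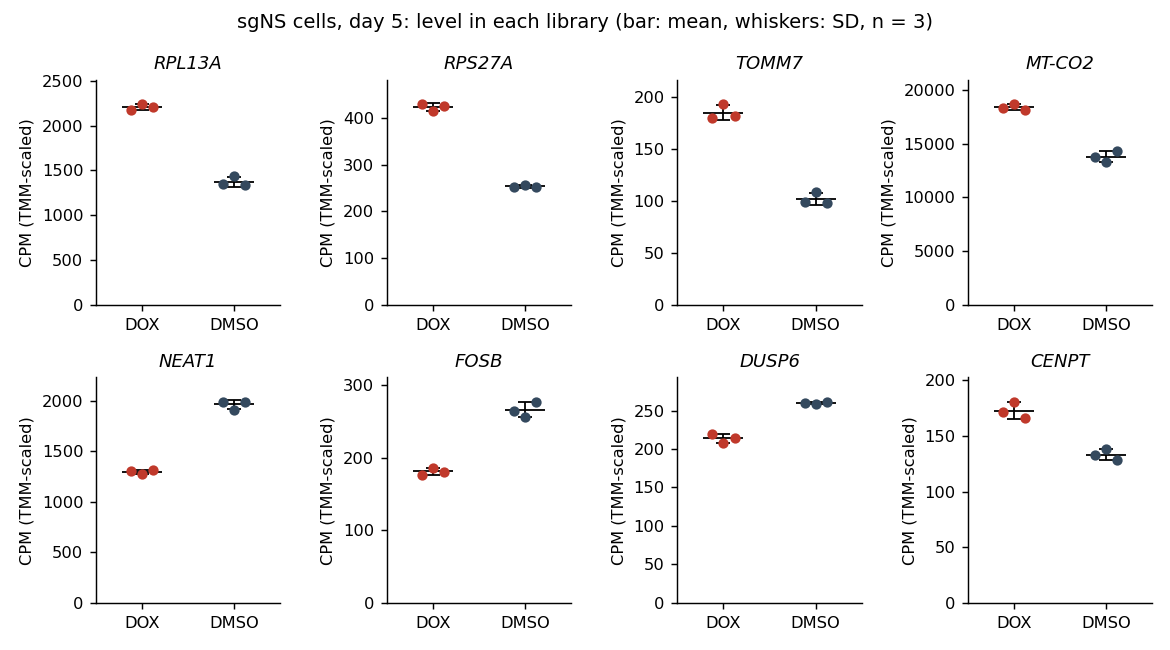
Level of 8 named genes in each sgNS library at day 5, in CPM scaled by TMM factors (y axis from 0), with DOX at the left of each panel and DMSO at the right; bars are means and whiskers SD (n = 3). RPL13A, RPS27A, TOMM7, MT-CO2 and CENPT sit higher in the 3 DOX libraries and NEAT1, FOSB and DUSP6 lower, with no overlap between groups.

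RPL13A, a protein of the large subunit, had 2176, 2241 and 2207 CPM with DOX, against 1353, 1437 and 1333 CPM with DMSO. The lowest DOX library was far above the highest DMSO library, and the log2 change was 0.68 (SE 0.03, adjusted p = 3.3e-27). RPS27A, made as a fusion of ubiquitin with a small subunit protein, had 429, 414 and 424 CPM with DOX, against 251, 256 and 253 CPM with DMSO. Its log2 change of 0.74 (SE 0.03, adjusted p = 3.9e-27) was the largest of the list. RPL7 and RPL30, of the large subunit, changed by 0.72 and 0.68. Ribosomal protein genes have many processed pseudogenes in the genome, and how the authors' counting divided reads between copies is not known for each. RPL23AP42, such a copy of RPL23A, rose by 0.91 and RPL23A itself by 0.68, and the division of reads between them is uncertain. Per length, RPL13A stood at 2724 ± 21.01 TPM with DOX and 1919 ± 36.1 TPM with DMSO (SD, n = 3 each).

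In sgNS the ribosomal list took 6.93% ± 0.04 of counts with DOX and 5.92% ± 0.19 with DMSO (SD, n = 3 each). The shares did not overlap, and the exact two-sided permutation test gave p = 0.1, the smallest that 3 against 3 allows. Under the ZBTB11 guides the list took 5.741% with DOX and 5.998% with DMSO for sgZBTB11 #1, and 5.18% with DOX and 5.80% with DMSO for sgZBTB11 #2, so sgNS with DOX had the highest mean of the 6 groups. Its median log2 change there was -0.09 with sgZBTB11 #1, where 22 of the 79 fell (0.773% of all genes fell), and -0.17 with sgZBTB11 #2, where 60 fell (6% of all genes) and 2 rose (3%). The difference of sgNS from the mean of these guides passed the threshold with sgNS higher for 79 of 79, against 10.3% of all genes.

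The promoters of RPL13A and RPS27A are printed because these genes had 2 of the smallest adjusted p-values and moved with the rest of the list. They are RefSeq sequences of GRCh38.p14, 150 bases before to 20 bases from the annotated gene start, both on the plus strand, written 5′ to 3′ in lower case. RPL13A lies at chr19:49487458-49487627 and RPS27A at chr2:55231753-55231922. Capitals mark a match to the serum response element core known as the CArG box, found on either strand.
RPL13A: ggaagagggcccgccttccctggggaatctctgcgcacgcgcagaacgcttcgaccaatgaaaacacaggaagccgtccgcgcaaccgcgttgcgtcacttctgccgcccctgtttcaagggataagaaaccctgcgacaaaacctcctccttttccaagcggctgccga
RPS27A: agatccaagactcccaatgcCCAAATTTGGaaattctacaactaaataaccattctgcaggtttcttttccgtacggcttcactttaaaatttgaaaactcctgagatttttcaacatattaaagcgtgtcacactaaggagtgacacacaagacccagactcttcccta
Over the 300 bases from 250 before to 50 after the start, the ETS site CCGGAAG, on either strand, was in 10.7% of 27305 RefSeq promoters. Of the ribosomal list 63 of 79 genes matched a promoter, and 21 of the 63 (33.3%) held that site. The share was 1 of 23 (4.35%) among the matched genes of the immediate early list. These matches are a description of the letters in these windows.

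Transcripts of mitochondrial DNA were also higher. Of the 13 mRNAs, 12 passed with DOX higher and none lower, against 8.87% and 8.47% of all genes, with a median log2 change of 0.26. On the TPM scale 12 of 13 lay above the median of all genes. MT-CO2, a core subunit of cytochrome c oxidase, had 18270, 18680 and 18140 CPM with DOX, against 13760, 13280 and 14290 CPM with DMSO. The 3 DOX libraries were all above the 3 DMSO libraries, and the log2 change was 0.41 (SE 0.02, adjusted p = 8.0e-20). MT-ATP6 and MT-ATP8, subunits of ATP synthase whose reading frames overlap, changed by 0.42 and 0.45, and reads in the overlap cannot be divided between them. MT-ND6, which is read from the other strand, had 73.5 CPM with DOX and 72.7 CPM with DMSO and did not pass (log2 change 0.02, adjusted p = 0.94).

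The share of counts from mitochondrial DNA was 29.54% ± 0.22 with DOX and 26.25% ± 0.24 with DMSO (SD, n = 3 each), a difference of 3.28 percentage points. The DOX libraries held 29.4%, 29.8% and 29.4%, and the DMSO libraries 26.4%, 25.98% and 26.4%, with no overlap. The exact two-sided permutation test gave p = 0.1, the smallest that 3 against 3 allows. Under the ZBTB11 guides the share was 32.95% with DOX and 33.64% with DMSO for sgZBTB11 #1, and 31.43% with DOX and 31.27% with DMSO for sgZBTB11 #2. Both sgNS groups thus lay below every mean of the ZBTB11 guides, the DMSO libraries the most.

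**Figure D2:**
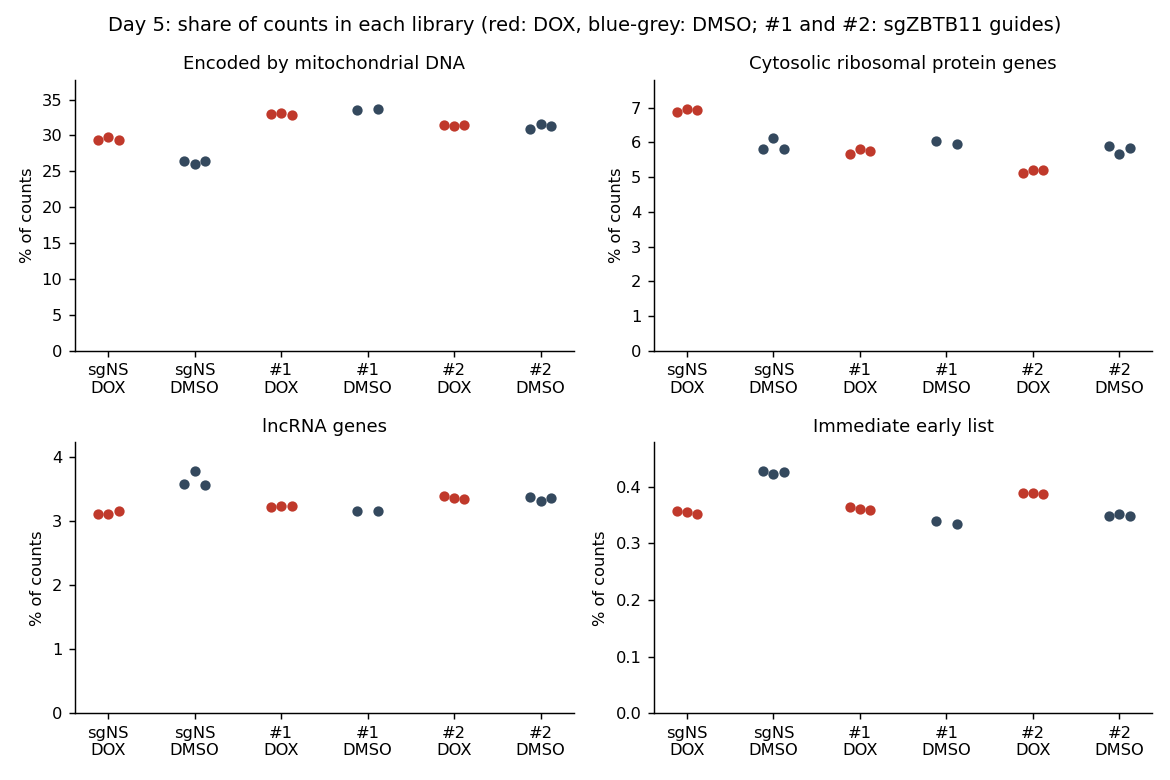
Share of counts (%, y axis from 0) taken by genes of mitochondrial DNA, cytosolic ribosomal protein genes, lncRNA genes and the immediate early list in each day 5 library, with DOX left of DMSO for each guide. Points are libraries. In sgNS the DOX libraries are above the DMSO libraries for the upper panels (29.54% against 26.25% for mitochondrial DNA) and below them for the lower panels.

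Nuclear genes of the mitochondrion were higher in smaller numbers, and no member of the mitochondrial ribosome's large subunit, complex IV, ATP synthase or TCA cycle lists passed as lower. In the large subunit of the mitochondrial ribosome, the complex that makes the proteins of mitochondrial DNA, 18 of 50 passed as higher, with a median log2 change of 0.09. Over all genes 8.87% were higher, which is the background for each count of these lists. MRPL33 had 33.1, 33.2 and 33.1 CPM with DOX, against 19.8, 20.7 and 20.6 CPM with DMSO. Its groups did not overlap and its log2 change of 0.70 (SE 0.07, adjusted p = 6.8e-12) was the largest of that list. In complex IV, the cytochrome c oxidase that passes electrons to oxygen, 15 of 30 passed as higher (median 0.18). COX14, an assembly factor, rose by 0.66, and COX7C, a subunit, by 0.38. In ATP synthase 13 of 20 passed as higher (median 0.18), led by ATP5F1E with 851, 868 and 889 CPM with DOX, against 604, 660 and 619 CPM with DMSO. In the TCA cycle, the route that feeds electrons to the chain, 10 of 28 passed as higher (median 0.11), among them SUCLG2 (0.49) and MDH2 (0.39). On the TPM scale 258 of 15286 genes passed as higher and 4758 as lower. There 5 members passed as higher and 17 as lower in the mitochondrial ribosome, and 3 and 4 in complex IV. In ATP synthase it was 5 higher and 2 lower, and in the TCA cycle 1 and 6. Relative to the median of all genes on that scale, the medians of these lists stayed above 0, between 0.06 and 0.14. In complex I 15 of 37 passed as higher, in glycolysis 9 of 22 and in the proteasome 15 of 36 with 1 lower, while 4 of 50 replication genes were higher and 4 lower, which is near the background of 8.87% and 8.47%.

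Among all genes with at least 5 CPM, the largest increases with a gene symbol were RPL23AP42, TOMM7 and ADAM1A. TOMM7, a small subunit of the outer membrane protein import complex, had 180, 193 and 181 CPM with DOX, against 99.4, 109 and 97.7 CPM with DMSO. The groups were well apart, and its log2 change was 0.86 (SE 0.04, adjusted p = 2.8e-13). SKP1, an adaptor of ubiquitin ligases, rose by 0.73 and LAP3, an aminopeptidase, by 0.72. With sgZBTB11 #2 both TOMM7 (-0.87) and SKP1 (-0.76) went the other way, but with sgZBTB11 #1 neither passed (-0.09 and -0.03, adjusted p = 0.57 and 0.87). Their differences from the mean of the ZBTB11 guides were 1.34 and 1.13. DMSO levels also differed by line. For sgNS, sgZBTB11 #1 and sgZBTB11 #2 they were 101.9, 122.4 and 149.3 CPM for TOMM7 and 129.6, 148.5 and 191.1 CPM for SKP1.

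**Figure D3:**
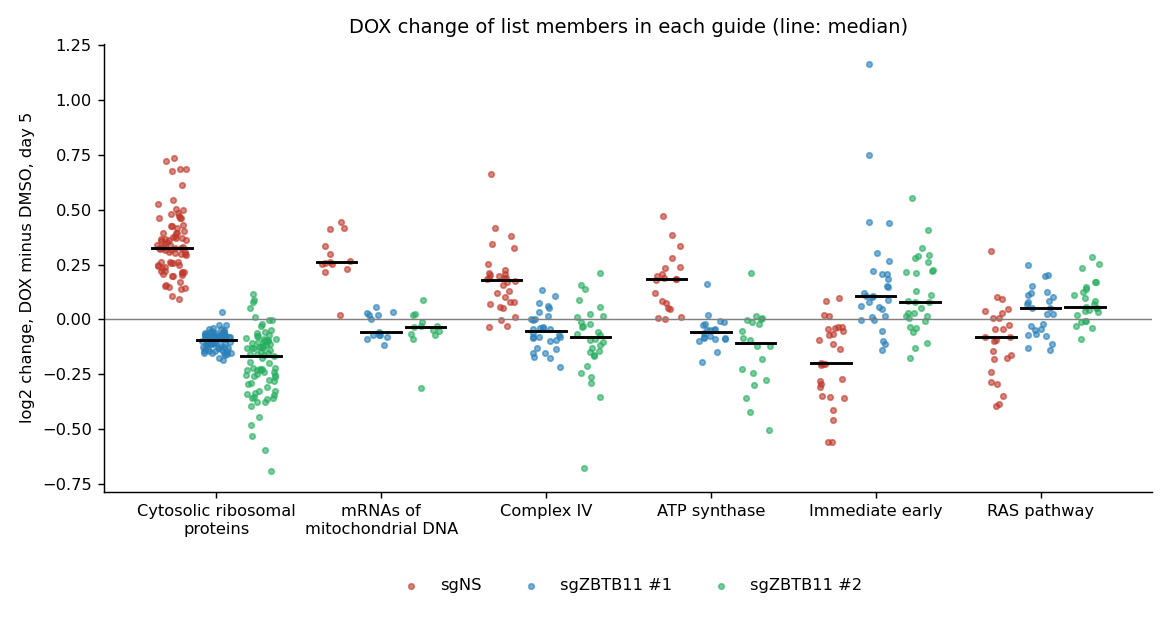
Log2 change, DOX minus DMSO at day 5, of each member of 6 lists in sgNS (red), sgZBTB11 #1 (blue) and sgZBTB11 #2 (green); lines are medians. Ribosomal, mitochondrial DNA, complex IV and ATP synthase medians are above 0 in sgNS (0.33, 0.26, 0.18 and 0.18) and below 0 in the ZBTB11 guides, and the order is turned for the immediate early (-0.20) and RAS pathway (-0.08) lists.

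Immediate early genes were lower. Of 31 listed genes 29 were tested, and 16 passed as lower and none as higher, against 8.47% of all genes for lower. Their median log2 change was -0.20. FOSB, an AP-1 transcription factor, had 177, 186 and 181 CPM with DOX, against 265, 257 and 277 CPM with DMSO. All DOX libraries were below all DMSO libraries, and the log2 change was -0.56 (SE 0.03, adjusted p = 1.1e-21). FOSL1, another AP-1 member and a target of ERK signalling, had 10.1, 10.6 and 9.43 CPM with DOX, against 13.7, 15.6 and 15.0 CPM with DMSO, a log2 change of -0.56 (SE 0.09, adjusted p = 2.1e-06). KLF6, a zinc finger factor, changed by -0.46, EGR3, an early growth response factor, by -0.41, and SRF, the factor that drives many of these genes, by -0.36. JUND, NR4A1 and MCL1 also fell, by 0.35, 0.35 and 0.27 on the log2 scale. FOS and JUNB, which share the AP-1 family with FOSB, did not pass: FOS had a log2 change of 0.02 and JUNB of 0.01. On the TPM scale 23 passed as lower, where 4758 of 15286 genes did so. Relative to the median of all genes there, 25 of 28 lay below.

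The list took 0.3545% ± 0.003 of counts with DOX and 0.4254% ± 0.002 with DMSO (SD, n = 3 each), with no overlap between groups. The exact two-sided permutation test gave p = 0.1, the smallest that 3 against 3 allows. The share was 0.3608% with DOX and 0.3364% with DMSO for sgZBTB11 #1, and 0.3883% with DOX and 0.3491% with DMSO for sgZBTB11 #2. The sgNS DMSO libraries thus had the highest mean of the 6 groups, and the mean with DOX in sgNS lay within the range of the ZBTB11 guides. Under the ZBTB11 guides 8 members rose with sgZBTB11 #1 (0.363% of all genes rose) and none fell (0.773%). With sgZBTB11 #2 the list had 11 that rose (3% of all genes) and 1 that fell (6%). The difference from the mean of these guides passed with sgNS lower for 19 of 29, against 8.95% of all genes, and with sgNS higher for 1.

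The promoters of FOSB and SRF are printed because FOSB had the smallest adjusted p of the list and SRF is itself the factor whose binding motif, the CArG box, is searched. Both are on the plus strand of GRCh38.p14 (RefSeq) over the same window, FOSB at chr19:45467846-45468015 and SRF at chr6:43171119-43171288, with CArG box matches in capitals.
FOSB: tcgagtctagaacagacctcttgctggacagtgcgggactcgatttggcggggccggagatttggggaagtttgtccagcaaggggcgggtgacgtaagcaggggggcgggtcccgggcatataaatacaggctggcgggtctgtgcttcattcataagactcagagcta
SRF: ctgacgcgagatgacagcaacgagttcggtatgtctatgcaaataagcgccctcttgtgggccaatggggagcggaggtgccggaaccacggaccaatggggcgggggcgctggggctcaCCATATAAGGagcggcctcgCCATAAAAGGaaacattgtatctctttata
Over the 300-base promoters the CArG box was in 1.29% of all RefSeq promoters and in 2 of 23 (8.7%) of the immediate early list, and the cyclic AMP response element TGACGTCA was in 1.98% and in 2 of 23 (8.7%). In the ribosomal list each of these motifs was in 3 of 63 (4.76%). No match in the FOSB window says only that these letters are not there.

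In the RAS pathway a minority of genes passed the threshold, all of them lower with DOX. Of 25 members 10 passed as lower and none as higher, against 8.47% and 8.87% of all genes, with a median log2 change of -0.08. PTPN11, the phosphatase that couples receptors to RAS, had 38.8, 38.7 and 40.9 CPM with DOX, against 51.6, 50.8 and 53.2 CPM with DMSO. The groups did not overlap, and the log2 change was -0.39 (SE 0.05, adjusted p = 3.3e-08). SHOC2, a scaffold that activates RAF kinases, changed by -0.38, BRAF, the kinase next in line, by -0.35 and NRAS, a RAS GTPase, by -0.29. MAP2K2, a further kinase of the cascade, did not pass, with a log2 change of -0.04. On the TPM scale 18 of 25 lay below the median of all genes. With the length trend removed 7 of the 25 passed as lower, against 1235 of 15641 genes.

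Among 25 tested genes of MAP kinase feedback 7 were lower and 1 higher (median -0.09), against 8.47% lower and 8.87% higher of all genes, the background for the YAP and TEAD genes too. FOSL1 is in both this list and the immediate early list, so the counts of these lists are not separate. Its log2 change of -0.56 was the lowest of the feedback list. DUSP6, a phosphatase of ERK, had 220, 208 and 214 CPM with DOX, against 260, 259 and 262 CPM with DMSO, and fell by 0.28 on the log2 scale (SE 0.03, adjusted p = 1.5e-11). SPRED2 and SPRY1, inhibitors of the pathway, fell by 0.28 and 0.25. The member that rose was AREG, a ligand of the EGF receptor, by 0.39. Among 18 tested YAP and TEAD genes 6 were lower and 1 higher, led by FJX1 (-0.40) and LATS2, a kinase that restrains YAP (-0.29). The member that rose was AXL, a receptor kinase (0.17), with an adjusted p of 0.032 that did not hold without DMSO replicate 3, DOX replicate 2 or DOX replicate 3 (0.17, 0.11 and 0.12).

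Of the 8 tested nuclear long noncoding RNAs 3 were lower and none higher, against 8.47% and 8.87% of all genes. NEAT1, the scaffold of paraspeckles, had 1304, 1273 and 1316 CPM with DOX, against 1992, 1909 and 1992 CPM with DMSO. Its groups were far apart and its log2 change was -0.60 (SE 0.03, adjusted p = 6.1e-25). MALAT1, an RNA of nuclear speckles, had 671, 671 and 694 CPM with DOX, against 857, 886 and 872 CPM with DMSO, a log2 change of -0.36. Over all lncRNA genes 63 of 3606 were higher (1.75%) and 181 lower (5.02%), and their share of counts was 3.12% ± 0.02 with DOX and 3.63% ± 0.12 with DMSO (SD, n = 3 each). Under the ZBTB11 guides that share was 3.23% with DOX and 3.15% with DMSO for sgZBTB11 #1, and 3.36% with DOX and 3.35% with DMSO for sgZBTB11 #2. The sgNS DMSO libraries thus had the highest mean of the 6 groups and the sgNS DOX libraries the lowest. RN7SL1 and RN7SL2, RNA genes of the signal recognition particle, together took 1.51%, 1.52% and 1.49% of summed TPM with DOX and 2.33%, 1.91% and 2.37% with DMSO. Between DOX and DMSO these values differed in the same direction as the lncRNA share. Within DMSO, replicate 2 had the lowest of them but the highest lncRNA share (3.77%, against 3.57% and 3.56% in replicates 1 and 3). The part of RN7SL1 and RN7SL2 in the lncRNA result was not tested.

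Of 34 splicing factors 14 were lower and 8 higher, against 8.47% and 8.87% of all genes, the background for the next lists too. DDX17 and DDX5, related RNA helicases, changed by -0.25 and -0.20, and RBM5, a regulator of splice site choice, by 0.19. On the log2(TPM + 1) scale RBM5 had -0.07, which is above the median of all genes there (-0.16). Of 37 tested genes of the ATF4 stress response 8 were lower and 3 higher, the higher count being near the background. SLC7A5 and SLC38A2, amino acid transporters, changed by -0.37 and -0.28, and MTHFD2, a mitochondrial folate enzyme, by -0.26, while SARS1, a seryl-tRNA synthetase, rose by 0.29. SLC7A5 did not pass without DMSO replicate 3 or DOX replicate 1 (adjusted p = 0.051 and 0.058). Of 17 partners of the KRAB repressor domain 3 were lower and 4 higher. TRIM28, the protein that KRAB domains bind, had 221 CPM with DOX and 229 CPM with DMSO and did not pass (log2 change -0.05, adjusted p = 0.40). ATF7IP, a partner of the SETDB1 methyltransferase, changed by -0.27 and HDAC1, a histone deacetylase, by 0.20. On the log2(TPM + 1) scale HDAC1 had -0.0084, also above that median.

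The largest decrease with at least 5 CPM was that of HERC2P2, a pseudogene of HERC2. It had 4.61, 7.65 and 3.67 CPM with DOX, against 17.7, 11.1 and 14.6 CPM with DMSO, a log2 change of -1.49 (SE 0.40, adjusted p = 0.023). It did not pass without DMSO replicate 1, DMSO replicate 3, DOX replicate 1 or DOX replicate 3 (0.074, 0.065, 0.082 and 0.097), and NBPF19, NPIPB7 and SEPTIN7P13, also among the 12 largest decreases, belong like it to families of near-identical copies whose read division is uncertain. ZBTB37, a zinc finger factor of the ZBTB family, had 6.80, 6.28 and 7.72 CPM with DOX, against 13.2, 11.1 and 12.2 CPM with DMSO, and fell by 0.80 on the log2 scale (SE 0.11, adjusted p = 4.5e-08). LINC01106 and LINC00641 were lower by log2 changes of -0.74 and -0.63.

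Effective length, estimated from the ratio of expected counts to TPM, went with the direction. In the shortest quintile of 15641 genes with a length, 16.3% were higher and 2.24% lower, with a median log2 change of 0.07. In the longest quintile 3.1% were higher and 21% lower, with a median of -0.08. The ZBTB11 guides ran the other way over the same quintiles, with medians of -0.04 and 0.03 for sgZBTB11 #1 and -0.05 and 0.04 for sgZBTB11 #2. The effective length of the shortest genes relative to the longest deviated from its mean over the day 5 libraries by -0.0050 to 0.017 on the log2 scale in the 6 sgNS libraries. With the length trend removed from each library 2668 genes passed, 1433 higher and 1235 lower. List counts with the length trend removed are given here for the ribosomal and RAS pathway lists only. The backgrounds of 8.87% higher and 8.47% lower over all genes, set beside each list, are not matched for length. The part of length in the list results beyond these counts was not tested.

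**Figure D4:**
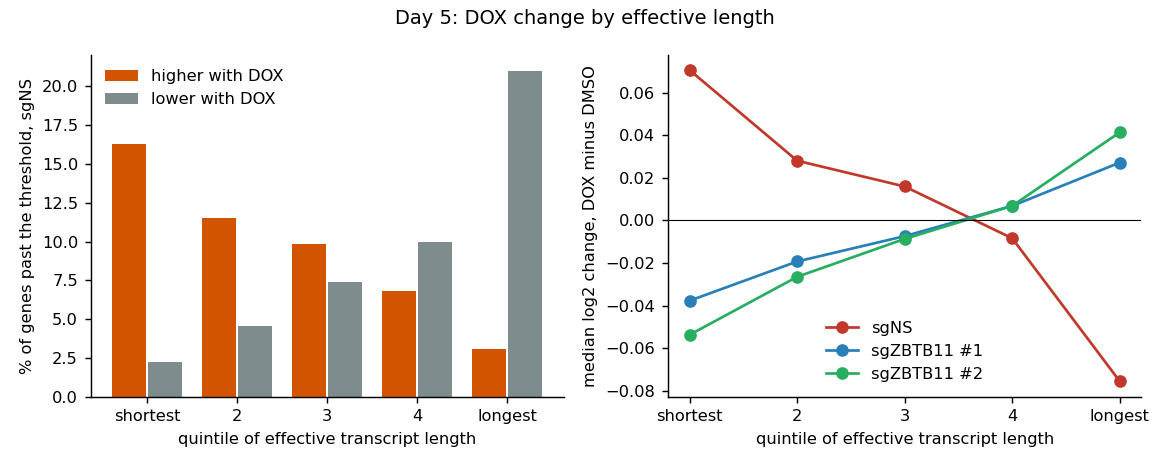
Left: percent of genes past the threshold in sgNS at day 5, higher (orange) or lower (grey) with DOX, by quintile of effective length. Right: median log2 change, DOX minus DMSO, in the same quintiles for sgNS (red), sgZBTB11 #1 (blue) and sgZBTB11 #2 (green). The share of higher genes is 16.3% in the shortest quintile and 3.1% in the longest, and the medians run in opposite directions in sgNS and the ZBTB11 guides.

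The time course of the same guide shows when the pattern of day 5 was present. At 5 hr 6395 of 15623 genes passed the threshold in sgNS (40.9%), with 20.9% higher and 20.1% lower. On day 1 the number was 356 of 16275 (2.19%, 0.559% higher and 1.63% lower) and on day 3 146 of 16645 (0.877%, 0.403% higher and 0.475% lower). Over the 4 times, early to late, the ribosomal list had median log2 changes of -0.29, -0.04, 0.05 and 0.33. For the mRNAs of mitochondrial DNA it was -0.25, 0.03, 0.18 and 0.26 in the same order, and for the immediate early list 0.13, 0.06, -0.06 and -0.20. The RAS pathway list had 0.25, 0.02, -0.02 and -0.08. Each of these lists thus had opposite signs at 5 hr and day 5. Of the 2915 genes of day 5, 1828 also passed at 5 hr (62.7% of the 2915 and 28.6% of the 6395), and 1480 of these had the opposite direction. Of the 112 shared with day 1, 66 had the same direction and 46 the opposite, and of the 87 shared with day 3, 79 had the same direction. Across all genes tested at both times, which are not independent and include many low genes, Pearson's r of the log2 changes with day 5 was -0.13 for 5 hr (15129 genes), -0.09 for day 1 (15601) and -0.01 for day 3 (16296), so the directions above are those of the shared calls.

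**Figure D5:**
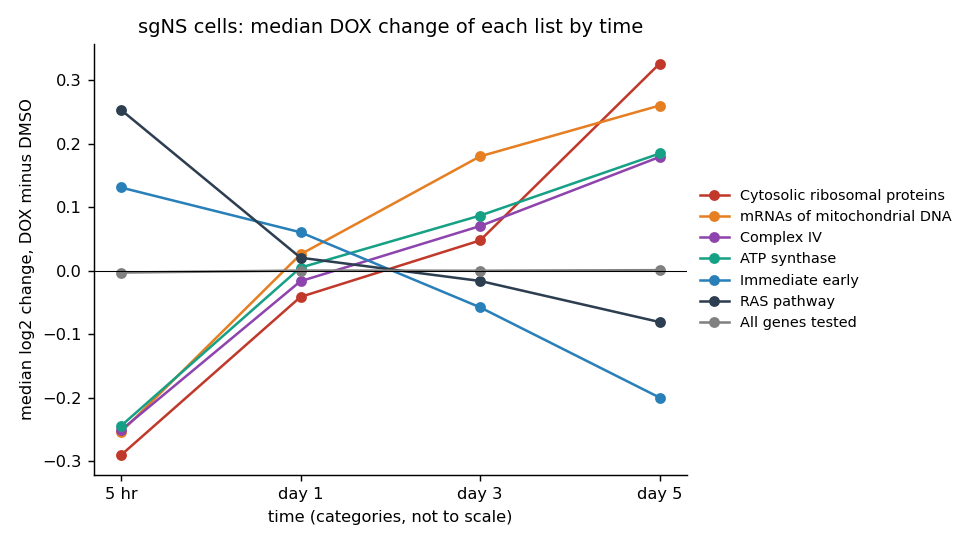
Median log2 change, DOX minus DMSO, of 6 lists and of all genes tested in sgNS over the 4 times (x axis not to scale). The ribosomal median goes through -0.29, -0.04, 0.05 and 0.33, the immediate early median through 0.13, 0.06, -0.06 and -0.20, and all genes stay near 0.

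The difference between day 5 and day 3 was tested in a fit of all libraries. It passed for 981 of 18061 genes (5.43%), 594 higher at day 5 (3.29%) and 387 lower (2.14%). Of the ribosomal list 59 of 79 were higher at day 5, and of the immediate early list 11 were lower and 2 higher. RPL13A differed by 0.64 (adjusted p = 1.5e-22), NEAT1 by -0.48 (adjusted p = 2.2e-13) and FOSB by -0.29 (adjusted p = 2.9e-05). With RLE scaling the split was 666 higher and 327 lower, and on log2(TPM + 1) 212 higher and 1184 lower.

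The difference from the ZBTB11 guides at day 5 passed for 3230 of 16809 genes (19.2%), 1726 with sgNS higher and 1504 with sgNS lower. On log2(TPM + 1) the numbers were 362 higher and 4487 lower. Counted separately, 191 genes (1.14%) passed for sgZBTB11 #1 and 1513 (9%) for sgZBTB11 #2. Of the 2915 genes of sgNS, 837 also passed for sgZBTB11 #2 (28.7% of the 2915 and 55.3% of the 1513), 779 of them in the opposite direction. For sgZBTB11 #1 98 were shared (3.36% and 51.3%), 77 of them opposite. Across all 16809 genes Pearson's r of the log2 changes in sgNS was 0.05 with sgZBTB11 #1 and 0 with sgZBTB11 #2. These genes are not independent and include many low ones. The opposite directions counted in this paragraph are those of the shared calls. These comparisons share no libraries.

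A few genes passed in sgNS at every time. There were 11 genes past the threshold at all 4 times, and 7 of them kept 1 direction. The shares of all genes passing at 5 hr, day 1, day 3 and day 5 were 40.9%, 2.19%, 0.877% and 17.3%. CENPT (chromosome 16, 67828157 to 67847693, GRCh38.p14), a protein of the inner kinetochore, had 172, 181 and 166 CPM with DOX at day 5, against 133, 138 and 129 CPM with DMSO. The groups did not overlap, and the log2 change was 0.38 (SE 0.03, adjusted p = 2.7e-13). It was smaller than the 0.53 with sgZBTB11 #1 and 0.48 with sgZBTB11 #2, with a difference from their mean of -0.13 (adjusted p = 0.019). SLC25A36, a mitochondrial pyrimidine nucleotide carrier, rose at each time, by 0.71, 0.63, 0.36 and 0.19 from the earliest to the latest, and its day 5 value on the log2(TPM + 1) scale was -0.06, above the median of all genes there (-0.16). SERPINA3, a secreted protease inhibitor, and NPAS2, a clock transcription factor, were lower at all 4 times, with log2 changes of -0.25 and -0.22 at day 5. ZNF217, a zinc finger repressor, changed direction, with log2 changes of 0.56, 0.14, -0.20 and -0.47 from 5 hr to day 5. THAP11 is a transcription factor gene whose annotated span lies within that of CENPT, and since the strand handling is not given, reads cannot be divided between them with certainty. THAP11 had log2 changes of -0.85 at 5 hr and -0.92 at day 1 and did not pass at day 5 (-0.16, adjusted p = 0.19). It passed at day 5 on log2(TPM + 1), with -0.35, and without DOX replicate 3, with -0.32, so its call at day 5 depends on the scale and on that library. FBXL19-AS1 and UBXN8, also seen in earlier work on these data to respond to DOX, had log2 changes of 0.15 (adjusted p = 0.20) and 0.42 (adjusted p = 0.0062) at day 5.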

How the data were processed

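Poly(A) RNA of MIA PaCa-2 cells was sequenced in paired reads, per the labels' protocols. The authors deposited expected counts and TPM per gene, and the submitters' processing notes name RSEM and GRCh38.p14. For the aligner, annotation release and strand handling, no entry is given in the sources used here. Expected counts, 5.13% of which were not whole, were rounded. Genes were filtered by edgeR's filterByExpr, scaled by TMM and tested with edgeR 4.0.16 (quasi-likelihood, robust) in R 4.3.3, with all 17 day 5 libraries in 1 fit, a mean per group and no block. Alternatives used DESeq2 1.42.0 and limma 3.58.1 on log2(TPM + 1). The edgeR step was tested on simulated data. Shares of counts were compared by exact permutation over libraries. Replicate libraries differed by more than sampling noise (chi-square per degree of freedom 1.34 to 3.49).

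The members and the 54 gene lists were chosen with earlier results of these data known. Named genes were ZBTB11, the 12 largest increases and decreases past the threshold with at least 5 CPM, the 5 smallest adjusted p, up to 5 members per described list with the largest change, up to 6 with the smallest adjusted p of the difference from the ZBTB11 guides, up to 6 past the threshold at all 4 times, and DOX responses seen earlier. A few genes that these rules or lists hold are not reported here.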

Additional observations from a re-analysis of the deposited data

Results flagged for a closer look

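Over all genes the DOX change in sgNS differed from that of the ZBTB11 guides for 3230 of 16809 (19.2%). The named genes were chosen in part by this difference or by their change in sgNS, so their count is a description. Of the 95 named genes 90 had a DOX change at day 5 in sgNS that differed from the mean of the ZBTB11 guides (edgeR, adjusted p at most 0.05), 44 above and 46 below that mean. Of these, 63 had a sign opposite to both guides in sgNS. That count takes signs alone, whether or not the change under a guide passed the threshold. RBM5, for one, had -0.01 with sgZBTB11 #1 and -0.03 with sgZBTB11 #2 (edgeR, adjusted p = 0.94 and 0.67). All values are differences of log2 changes, sgNS minus the mean of the ZBTB11 guides, with DOX minus DMSO in each. The 3 groups share no libraries, and no cause was tested. Among other named genes the difference was 0.50 for ZBTB11, -0.61 for ZNF217, -0.13 for CENPT, -0.37 for SERPINA3 and -0.14 for NPAS2. Further named genes had -0.21 for SLC25A36 and 0.53 for UBXN8. For other genes with the largest increases it was 1.16 for ENSG00000297649, 1.21 for RPL23AP42, 1.34 for TOMM7, 0.91 for ADAM1A, 1.13 for SKP1 and 0.89 for LAP3. Further genes with largest increases had 0.85 for TMEM265. In cytosolic ribosomal protein genes the value was 0.98 for RPS27A, 1.08 for RPL7, 0.92 for RPL13A, 0.98 for RPL23A and 1.08 for RPL30. Of mitochondrial ribosome genes the difference came to 1.01 for MRPL33, 0.73 for MRPL36, 0.60 for MRPL51, 0.72 for MRPL58 and 0.63 for MRPL1. Among the largest decreases the difference was -2.07 for HERC2P2, -1.19 for ENSG00000271533, -1.01 for ZBTB37, -0.60 for LINC01106, -0.90 for ENSG00000288924 and -0.97 for NBPF19. Further largest decreases had -0.73 for NPIPB7, -0.85 for SEPTIN7P13, -0.84 for ENSG00000260772, -0.80 for ENSG00000261324, -0.58 for LY6G5B and -0.58 for LINC00641. For nuclear long noncoding RNAs it was -0.68 for NEAT1, -0.38 for MALAT1 and -0.16 for OIP5-AS1. In mRNAs of mitochondrial DNA the value was 0.41 for MT-ATP8, 0.36 for MT-ATP6, 0.46 for MT-CO2, 0.39 for MT-CO3 and 0.27 for MT-CYB. Of complex IV genes the difference came to 1.07 for COX14, 0.63 for COA3, 0.55 for COX7C, 0.43 for SURF1 and 0.36 for NDUFA4. Among ATP synthase genes the difference was 0.76 for ATP5F1E, 0.59 for ATP5PB, 0.53 for ATP5PF, 0.46 for ATP5MJ and 0.35 for ATP5MG. For TCA cycle genes it was 0.57 for SUCLG2, 0.55 for MDH2, 0.41 for SDHA, 0.47 for SUCLA2 and 0.37 for SDHB. In immediate early genes the value was -0.76 for FOSL1, -0.86 for FOSB, -0.69 for KLF6, -0.80 for EGR3 and -0.47 for SRF. Of MAP kinase feedback genes the difference came to 0.53 for AREG, -0.34 for SPRED2, -0.35 for DUSP6 and -0.37 for SPRY1. Among RAS pathway genes the difference was -0.47 for PTPN11, -0.63 for SHOC2, -0.43 for BRAF and -0.40 for NRAS. For YAP and TEAD genes it was -0.43 for FJX1, -0.45 for LATS2, -0.28 for CRIM1 and -0.37 for CCN1. In splicing factors the value was -0.30 for DDX17, -0.34 for DDX5, -0.20 for SRSF1, -0.20 for TRA2A and 0.21 for RBM5. Of ATF4 response genes the difference came to 0.43 for SARS1, -0.40 for SLC38A2, -0.20 for MTHFD2 and -0.28 for PPP1R15A. Among partners of the KRAB domain the difference was -0.38 for ATF7IP, -0.28 for UHRF1, 0.45 for CBX1, 0.22 for HDAC1 and -0.22 for CBX5. ZBTB11 itself is the gene that the ZBTB11 guides target.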

How the results depend on the processing

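The number of genes past the threshold in sgNS at day 5 (2915) was 2002 to 2956 under RLE scaling, without genes of mitochondrial DNA, DESeq2, no filter, trends of length or of length and GC removed (the GC fit was chosen after seeing the data), only sgNS libraries or 1 fit of all libraries. With limma on log2(TPM + 1) it was 5016, 258 higher and 4758 lower, and with log2(TPM + 0.1) 4987. The difference from the ZBTB11 guides (3230) became 4849 on log2(TPM + 1), 362 higher and 4487 lower. The median change of all genes was -0.16 and -0.18 in the sgNS fits and -0.19 in that of the difference. The unfiltered fit on log2(TPM + 1) gave 3856 in sgNS. Leaving out libraries gave 2229 to 2733 in sgNS, 2758 to 3232 for the difference from the guides, 769 to 910 for day 5 minus day 3 (981) and 3.14 to 3.35 percentage points for the mitochondrial DNA share (3.28). Day 5 minus day 3 without a filter gave 677 higher and 198 lower.

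Replicate numbers did not pair the libraries, since correlations of same-numbered deviations were -0.02, 0.01 and -0.04. With the replicate block 2916 genes passed in sgNS, 3219 for the difference and 997 between days. TMEM265 did not pass with the block (adjusted p = 0.06, against 0.028 without it).

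Of the 92 named genes past the threshold, 63 passed under every alternative run, and of 1738 pairs of gene and alternative 1632 kept the call, 88 were weaker and 18 reversed. The reversed ones came on the TPM scales, where the median of all genes was itself below 0 (-0.16, -0.18 and -0.04), and on the filtered scales all of them lay above that median. In the order log2(TPM + 1), log2(TPM + 0.1) and log2(TPM + 1) with no filter, SUCLA2 had -0.0037, -0.0033 and -0.0037, AXL -0.029, -0.033 and -0.029, RBM5 -0.069, -0.069 and -0.069, CBX1 -0.0074, -0.0076 and -0.0074, HDAC1 -0.0084, -0.0084 and -0.0084, and SLC25A36 -0.060, -0.062 and -0.060. FBXL19-AS1 (-0.039, -0.045 and -0.039) and ENSG00000233461 (-0.10, -0.11 and -0.10) did not pass on these scales, nor on counts, except FBXL19-AS1 without DMSO replicate 1. THAP11, which did not pass on counts, passed on these scales and without DOX replicate 3. At these depths of 12747347 to 20627642 counts, genes near the filter have wide errors.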
